A study of Sus scrofa with 12 samples.

Results

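The CCAAT/enhancer binding proteins (C/EBPs) were followed in smooth muscle cells cultured from the coronary artery of the pig (Sus scrofa). The family was taken as 4 genes, CEBPA, CEBPB, CEBPD and CEBPG, found in the count table of 21153 genes by matching its Ensembl identifiers to pig gene symbols. All 4 were in the table, and 3 of them passed the filter on low counts; CEBPA did not. The 4 genes were chosen from this data set with the differences between its treatment groups already known, among them the level of CEBPD under PDGF-BB. The members' differences between treatments are therefore given as a description, with no p-value. Where a difference is said to have passed a threshold, this places it in the fit over all genes and supports nothing further.

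Each library came from primary cells between passages 6 and 11, labelled differentiated/contractile, which were kept in medium containing 10% fetal calf serum in all groups. Untreated control cells were compared with cells given PDGF-BB at 30 ng/ml, S100A4 at 1 µg/ml, or both proteins (PDGF-BB+S100A4), each for 4 h. Each group had 3 libraries, numbered 1 to 3, which makes 12 libraries in all, and the design text names 3 animals as the source of the cells. PDGF-BB is a platelet-derived growth factor dimer that acts as a mitogen for smooth muscle cells, and S100A4 binds calcium and is found both inside cells and as a secreted protein. No age, sex or strain of the animals is given in the labels.

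C/EBPs are transcription factors that dimerise through a leucine zipper and bind DNA through the basic region beside it, the pair of features that defines bZIP proteins. CEBPA is known for adipocyte, liver and myeloid differentiation and for restraining proliferation. CEBPB and CEBPD are known for the acute phase and cytokine response and for the early steps of adipocyte differentiation. CEBPG lacks a strong activation domain of its own and works as a partner in heterodimers, among others with ATF4 in the response to amino acid shortage. The CEBPB message is translated into longer activating and shorter inhibitory proteins from alternative start codons, which a count per gene does not separate.

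In the Sscrofa11.1 annotation of RefSeq the 4 genes lie at 3 places. CEBPD (ENSSSCG00000032367) is at chr4:79872863-79874481 and CEBPB (ENSSSCG00000034207) at chr17:51722633-51723673. CEBPA (ENSSSCG00000002866) at chr6:43083200-43085884 and CEBPG (ENSSSCG00000002867) at chr6:43164902-43175002 are neighbours, with a gap of 79017 bases that holds 1 annotated long noncoding RNA. The coordinates are whole gene spans, and the counts were summed over each gene.

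The libraries held 21455021 to 32448438 counts, and 1 CPM (the usual unit of counts scaled to library size) stood for about 21.2 counts in the smallest. Libraries with the same replicate number deviated together from their group means, so values are also given pair by pair, and fits are given both on the groups alone and with the replicate number as a block. Of the smooth muscle markers all 8 were in the table; their summed level was 9740 to 11600 CPM in the 4 replicate 2 libraries and 20700 to 25700 CPM in the other 8. TAGLN, a defining smooth muscle marker, had only 83 to 213 counts per library. The next lowest of these markers, DES, had 2250 to 16080 counts, and the highest, ACTA2, had 167668 to 507337. Whether the TAGLN row captures all reads of that gene was not tested. Fibroblast markers (6 of 6 in the table) summed to 1050 to 1210 CPM in the replicate 2 libraries, against 365 to 472 CPM in replicate 1 and 234 to 262 CPM in replicate 3. Markers of macrophages, in which CEBPA and CEBPB are known for high activity, summed to 7.25 to 11.5 CPM, with PTPRC and MARCO at 0 in all 12 libraries. Adipocyte markers summed to 0.848 to 3.84 CPM and hepatocyte markers to 1.96 to 2.89 CPM, with SERPINA1 at 0 throughout and ADIPOQ at 0 or 1 count.

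CEBPD, an immediate-early factor of the acute phase response that is also linked to cell cycle exit, had the widest range of the members. In control cells its level was 66.3, 126 and 46.2 CPM in replicates 1, 2 and 3. With PDGF-BB it was 14.5, 31.2 and 15.7 CPM, so every PDGF-BB library lay below every control library. With S100A4 it was 123, 173 and 152 CPM, which overlapped the control range through control replicate 2. With both proteins it was 41.7, 60.0 and 46.0 CPM, inside or just below the control range and above all 3 PDGF-BB libraries. Group means were 79.5 ± 41.6 CPM in control, 20.5 ± 9.31 CPM with PDGF-BB, 149 ± 25.5 CPM with S100A4 and 49.2 ± 9.55 CPM with both (SD, n = 3).

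**Figure D1:**
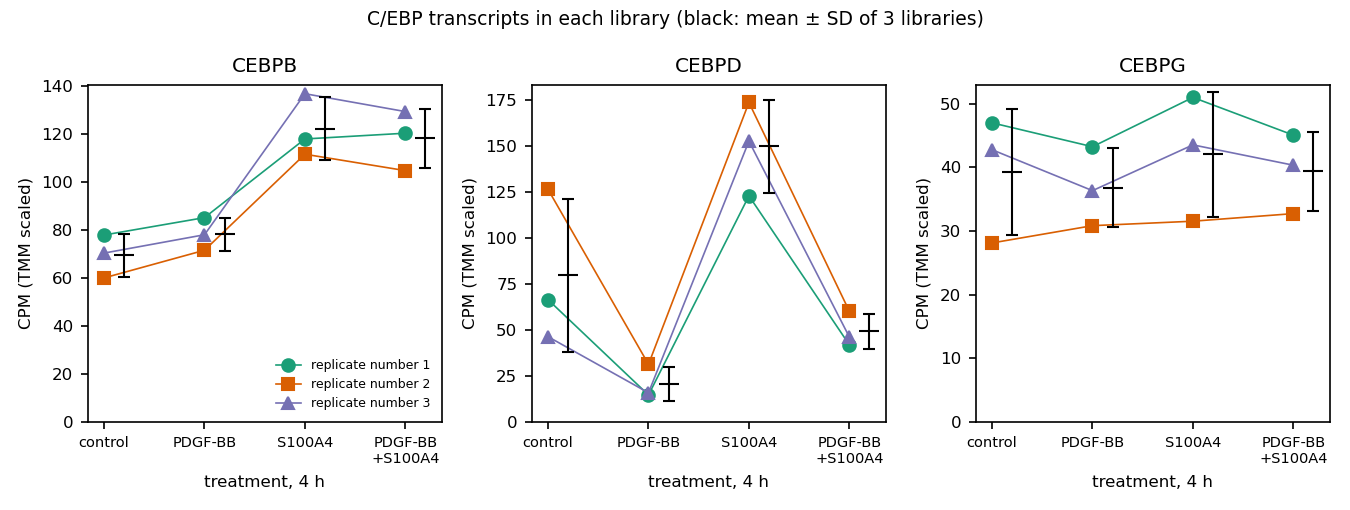
Level of CEBPB, CEBPD and CEBPG in CPM (axes from 0) by treatment group, with a point for each of the 12 libraries, lines joining libraries of the same replicate number, and black bars for the group mean and SD of 3 libraries. CEBPD lies at 14.5 to 31.2 CPM in the PDGF-BB libraries and at 123 to 173 CPM in the S100A4 libraries, and the CEBPG lines stay apart by replicate number.

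PDGF-BB alone went with 3.89-fold less CEBPD mRNA, a log2 difference of −1.96 ± 0.40 (SE), which passed the threshold of an adjusted p of 0.05 over all 12444 genes tested, in the fit on the groups alone and in that with the replicate block. By replicate number the differences were −2.19, −2.01 and −1.55. In cells that also received S100A4, PDGF-BB went with 3.04-fold less CEBPD than S100A4 alone (−1.60 ± 0.39), which passed in both fits, and the pairs gave −1.56, −1.53 and −1.73. The PDGF-BB libraries with S100A4 thus all lay below the S100A4 libraries, by much the same step in each pair. On the groups alone this second call was lost without replicate 1 or 3 of either the PDGF-BB+S100A4 group or all groups, and without S100A4 replicate 2 or 3, at −1.63 to −1.50. In a bulk culture fewer cells of a kind and less RNA per cell cannot be told apart, and this holds for all values here. The summed endothelial markers, of which 6 of 7 were in the table, were higher with PDGF-BB, with 120 to 203 CPM in PDGF-BB libraries against 55.2 to 127 CPM in control libraries, 59.5 to 137 CPM with S100A4 and 133 to 192 CPM with both; their part in the result was not tested. That sum moved through ERG, with a mean of 50.5 CPM in control and 118 CPM with PDGF-BB, while PECAM1 (11.2 and 13.0 CPM) and CDH5 (23.9 and 24.3 CPM) moved little. For PDGF-BB against control the threshold was missed on the groups alone when replicate 1 (−1.88) or replicate 3 (−2.07) of all groups was left out, or when the control and PDGF-BB libraries were fitted without the rest (−1.95).

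S100A4 alone went with 1.88-fold more CEBPD than in control (0.91 ± 0.38), which did not pass on the groups alone and passed with the replicate block (0.99 ± 0.16). The pairs gave 0.89, 0.46 and 1.72, all upward and unequal, the smallest in replicate 2 whose control was highest. With the block the difference passed without any one replicate number, at 0.67 to 1.29. On top of PDGF-BB, S100A4 went with more CEBPD (1.27 ± 0.39), again passing only with the block (2.48-fold, 1.31 ± 0.19), and the libraries of these groups did not overlap. Its pairs gave 1.52, 0.94 and 1.55. Cells given both proteins did not differ from control past the threshold on the groups alone (−0.69 ± 0.38); with the block the difference was −0.63 ± 0.17 and passed. Its pairs were −0.67, −1.07 and −0.01, so replicate 3 had nearly the same level in both groups, and without replicate 1 the call with the block was lost. The widest gap was between the single treatments, with 7.30-fold more CEBPD in S100A4 cells than in PDGF-BB cells (2.87 ± 0.41), which passed in both fits. That gap measured 3.08, 2.47 and 3.27 in the pairs, and its call on the groups alone was lost without replicate 1 (2.80) or 3 (2.69) of all groups.

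CEBPB, first known as the nuclear factor of the IL6 gene, was higher in all S100A4 libraries and close to control with PDGF-BB. In control cells its level was 77.7, 59.9 and 70.2 CPM. With PDGF-BB it was 85.0, 71.4 and 77.9 CPM, overlapping control. With S100A4 it was 118, 111 and 137 CPM, and with both proteins 120.1, 105 and 129 CPM. All 6 libraries that received S100A4 lay above all 6 that did not. Means were 69.3 ± 8.97, 78.1 ± 6.80, 122 ± 13.1 and 118 ± 12.4 CPM in control, PDGF-BB, S100A4 and both (SD, n = 3).

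S100A4 alone went with 1.76-fold more CEBPB mRNA (0.82 ± 0.12), which passed in both fits, and the pairs gave 0.60, 0.90 and 0.96. Both proteins together went with 1.70-fold more than control (0.77 ± 0.12), passing in both fits, with pairs of 0.63, 0.80 and 0.88. On top of PDGF-BB the S100A4 difference was 0.60 ± 0.12, which did not pass in the reported fit on the groups alone. It passed with the block (0.59 ± 0.06) and in the alternative fit by DESeq2, which had no block. On top of S100A4, PDGF-BB left CEBPB at −0.05 ± 0.12, with pairs of 0.03, −0.09 and −0.08, and the libraries overlapped. For PDGF-BB alone the difference was 0.17 ± 0.12; it passed only with the block (0.18 ± 0.06), with pairs of 0.13, 0.25 and 0.15, and with the block it was lost without replicate 2 or 3. S100A4 cells were above PDGF-BB cells by 0.64 ± 0.12, which passed in both fits but not on the groups alone without replicate 1 (0.74) or 3 (0.55) of all groups. On the groups alone the S100A4 call was lost without control replicate 2 or 3, without S100A4 replicate 1 or 3, without replicate 1 or 3 of all groups, and when both groups were fitted without the rest, with values of 0.72 to 0.94. The call for both proteins against control was lost without replicate 1 (0.85) or 3 (0.71) of all groups.

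CEBPG, the partner subunit, stayed within the replicate spread in every comparison with control. Its level was 47.0, 28.1 and 42.8 CPM in control, 43.2, 30.8 and 36.3 CPM with PDGF-BB, 51.0, 31.5 and 43.5 CPM with S100A4, and 45.1, 32.7 and 40.3 CPM with both. The 4 groups overlapped throughout, and replicate 2 was the lowest library in each. Differences from control were −0.09 ± 0.23 with PDGF-BB, 0.10 ± 0.23 with S100A4 and 0.00 ± 0.23 with both, and none passed. With the block the SE fell to 0.07 and none of these 3 passed; without replicate 2 as well, the PDGF-BB difference was −0.16 ± 0.06 and passed. One contrast passed with the block, S100A4 against PDGF-BB at 0.18 ± 0.07, with pairs of 0.24, 0.03 and 0.26, and it was lost without replicate 1 (0.15) or 3 (0.14).

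CEBPA, the antiproliferative member, was at the limit of detection. It had 1 to 4 counts in each of the 12 libraries and 26 counts in all, or 0.0845 CPM of the unscaled total. The exact 95% binomial interval was 0.0552 to 0.124, which covers counting error only. The 3 libraries of a group gave 6 counts in control, 4 with PDGF-BB, 7 with S100A4 and 9 with both. At this depth no difference between treatments was detectable. CEBPE (ENSSSCG00000002033), the granulocyte member of the family at chr7:75926652-75929949, had 0 counts in every library. With 3 counts taken as the limit, this allows up to 0.00975 CPM over all libraries and 0.14 CPM in the smallest. The upper end of the exact binomial interval over all libraries was 0.012 CPM. DDIT3, a C/EBP relative induced by stress, had no row matched by symbol and is not analysed here.

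**Figure D2:**
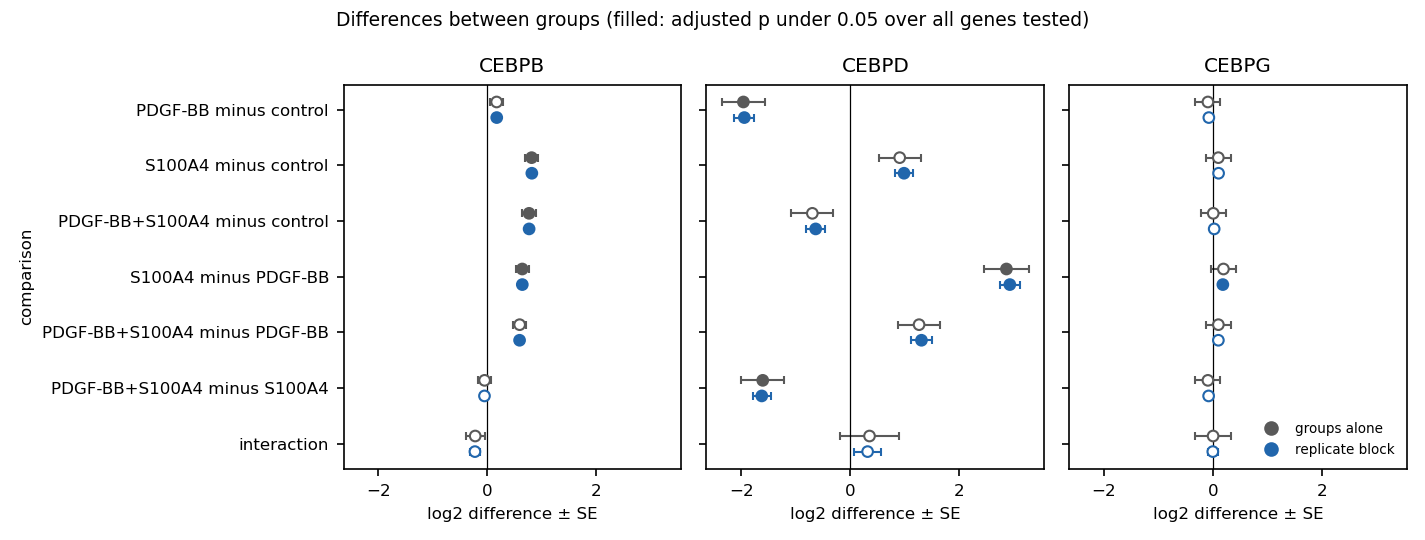
Log2 differences with their SE for CEBPB, CEBPD and CEBPG in the 6 comparisons between groups and the interaction, in grey from the groups alone and in blue with the replicate block; filled points passed an adjusted p of 0.05 over all genes tested. CEBPD spans −1.96 (PDGF-BB against control) to 2.87 (S100A4 against PDGF-BB), and CEBPG stays near 0.

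Counted over the 3 members tested, 1 passed in PDGF-BB against control on the groups alone, where 14.7% of all genes did, and 2 with the block, where 48.8% did. For S100A4 against control the counts were 1 (0.563% of all genes) and, with the block, 2 (10.7%). For both proteins against control they were 1 (22%) and 2 (56.1%). For S100A4 against PDGF-BB they were 2 (11.1%) and 3 (43.1%). For both against PDGF-BB they were 0 (0.273%) and 2 (7.14%), and for both against S100A4 they were 1 (15%) and 1 (47.8%). Nothing is read from these counts, since the same differences led to the choice of the genes. Comparisons with control share the control libraries, and each comparison's values stand on their own.

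The interaction term measured how far the log2 difference of both proteins lay from the single ones added up. It was 0.36 ± 0.54 for CEBPD, −0.22 ± 0.17 for CEBPB and 0.00 ± 0.33 for CEBPG on the groups alone. No member passed, and neither did any of the genes tested (0%). With the block the terms were 0.32 ± 0.25 for CEBPD and −0.23 ± 0.09 for CEBPB, and 0 members passed, beside 0.113% of all genes. For CEBPD the term was 0.63, 0.48 and −0.18 by replicate number, so its sign differed between them. An interval of this width leaves departures of that size undetectable at this number of libraries, and does not show that there are none.

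CEBPZ (ENSSSCG00000008493, chr3:102964213-102988664) shares the C/EBP name but binds CCAAT boxes through another kind of domain and has roles in ribosome formation. Its level was 37.5 ± 0.838 CPM in control, 56.6 ± 3.02 CPM with PDGF-BB, 41.4 ± 2.09 CPM with S100A4 and 54.9 ± 3.77 CPM with both (SD, n = 3). It was 1.51-fold higher with PDGF-BB than in control (0.59 ± 0.07, adjusted p = 0.00052, edgeR's quasi-likelihood test with Benjamini-Hochberg adjustment, as for every adjusted p here). With both proteins it was higher by 0.55 ± 0.07 (adjusted p = 0.00044), and with S100A4 alone it differed by 0.14 ± 0.07 (adjusted p = 0.9, and 0.18 with the block). CEBPZ was thus higher in both groups with PDGF-BB, where CEBPD was lower than in the matching groups without it. Without replicate 1 of all groups its PDGF-BB difference was 0.58 (adjusted p = 0.071 by edgeR on the groups alone). Of the 3 family relatives looked for, CEBPZ alone could be tested.

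The members also differed by replicate number, in a contrast not used to choose them. Libraries of a number deviate together and may be 1 source, so the SE here is over the 4 treatments and not between sources, and no p-value is given. Replicate 2 was set against the others knowing that it stood apart. Averaged over the 4 groups, replicates 1, 2 and 3 had 46.6, 30.8 and 40.7 CPM of CEBPG, 61.3, 97.7 and 65.1 CPM of CEBPD, and 100.2, 86.8 and 103 CPM of CEBPB. Against the mean of replicates 1 and 3, replicate 2 had 1.41-fold less CEBPG (−0.50 ± 0.05) and less CEBPB (−0.23 ± 0.05). The same replicate had 1.67-fold more CEBPD (0.74 ± 0.13). CEBPZ differed by 0.03 ± 0.05. All 3 members were past the threshold in this contrast, as were 63.1% of all genes tested, so it sets no member apart from the genome.

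Between replicates 3 and 1, CEBPG differed by −0.20 ± 0.06 and was past the threshold, as were 32.7% of all genes. CEBPB differed by 0.02 ± 0.05 and CEBPD by 0.04 ± 0.15, and neither passed. Replicate number accounted for 88.2% of the sum of squares of CEBPG over the 12 libraries, for 8.30% of that of CEBPB and for 9.78% of that of CEBPD. Treatment group accounted for 5.72%, 88.6% and 86.7% of them in the same order. Over all genes tested the median shares were 40.9% for replicate number and 36.9% for group. The members' shares for group rest on the treatment differences known when they were chosen, so nothing is read from their size. The smooth muscle and fibroblast marker sums given above also set replicate 2 apart, and so did the pericyte sum, with 312 to 420 CPM in replicate 2 and 1130 to 1920 CPM in the others. CSPG4 and NOTCH3 made up nearly all of that sum, while RGS5 went the other way, with means of 1.47, 6.57 and 0.458 CPM in replicates 1, 2 and 3. Their part in the differences of the members was not tested. The labels do not say whether a number stands for an animal.

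Genes whose level followed that of a member most closely were ranked by Pearson's r of log2 CPM over the 12 libraries, after the mean of each replicate number was taken off, among 9417 genes. The libraries of a treatment share that treatment, so these r are a description. For CEBPB the highest were ZC3H12A, an RNase that degrades cytokine messages (0.985), IL1A, the cytokine interleukin 1 alpha (0.984), TNFAIP3, a brake on NF-kappaB signalling (0.983), NFKB2 (0.981) and PHF11 (0.975). Their direction across groups was that of CEBPB, which follows from ranking them on these same libraries. For example, IL1A averaged 3.55 CPM in control, 4.89 CPM with PDGF-BB, 52.3 CPM with S100A4 and 52.9 CPM with both. The lowest were PKIG (−0.972), MGLL, a monoacylglycerol lipase (−0.952), and PDLIM2 (−0.945).

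For CEBPD the highest were SPIDR, a scaffold protein of DNA repair (0.996), TP53INP1, a p53-induced protein (0.986), GLB1, the lysosomal beta-galactosidase (0.980), NHERF1 (0.979) and AHRR (0.975). The lowest included the caveolin genes CAV1 (−0.986) and CAV2 (−0.973), beside YWHAB (−0.976). For CEBPG the values were smaller: PRPF40B (0.897), LHFPL2 (0.895), CEP152 (0.893), GCLC, a subunit of the enzyme that starts glutathione synthesis (0.892), and NFKBID (0.891). Among its lowest were SGSM1 (−0.917) and BMP4 (−0.906). Between members, r was 0.454 for CEBPB with CEBPD, 0.517 for CEBPB with CEBPG and 0.603 for CEBPD with CEBPG. Without taking off the replicate means these were 0.323, 0.422 and −0.083, so the value for CEBPD with CEBPG rests on that step.

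SPIDR, the gene most like CEBPD, is also its neighbour, at chr4:79874937-80190744, with 455 bases between both spans. Its level was 51.5, 83.9 and 36.4 CPM in control and 14.8, 28.2 and 14.4 CPM with PDGF-BB. With S100A4 it was 83.3, 110 and 91.8 CPM, and with both proteins 28.2, 47.6 and 34.7 CPM. In every group replicate 2 was the highest library for both genes. The log2 differences of SPIDR from control were −1.58 with PDGF-BB, 0.73 with S100A4 and −0.64 with both, each smaller than that of CEBPD. Whether counting used strand, and how reads that fit more than 1 gene were treated, is unknown here, so reads of these neighbours may not be separated and both values are uncertain to that extent. The neighbour on the other side, PRKDC, lies 22716 bases away and had r of −0.225 with CEBPD; MCM4 beyond it had −0.318. Among neighbours of CEBPB, RNF114, 194849 bases away, had r of 0.956, PTPN1 had 0.807, SPATA2 had 0.770 and SNAI1 had 0.436. The nearest one tested, UBE2V1 at 58134 bases, had 0.131, and SLC9A8 had −0.416. PEPD, 2060 bases from CEBPG, had −0.351.

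**Figure D3:**
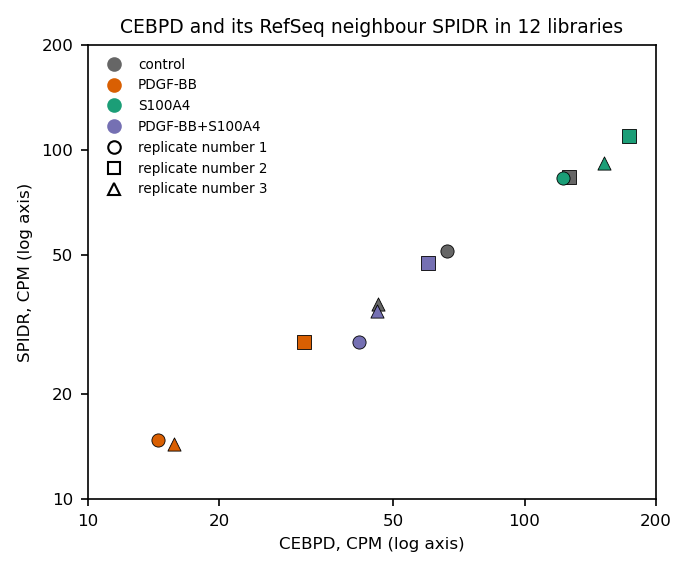
Level of SPIDR (vertical) against CEBPD (horizontal) in CPM on log axes, with a point for each of the 12 libraries, coloured by treatment group and shaped by replicate number. The points lie along a line, from PDGF-BB replicates 1 and 3 at the bottom to S100A4 replicate 2 at the top, and control replicate 2 (126 CPM of CEBPD) lies among the S100A4 libraries.

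The 6 lists of genes tied to C/EBPs were read with the same fits, with the count that passed in each direction. The lists were drawn up from general knowledge of the family, with results of these data known. Each count is to be read against the share of all genes in that direction. Genes named from a list were mostly picked for the smallest adjusted p. The adjusted p-values printed for them therefore place them in the fit over all genes and support nothing further. On the groups alone 9.09% of all genes were higher and 5.62% lower with PDGF-BB, 0.554% and 0.00804% with S100A4, and 13.2% and 8.75% with both. With the block the shares were 24.3% and 24.5%, 6.46% and 4.28%, and 27.5% and 28.6%. The median log2 difference of all genes tested lay between −0.025 and 0.008 on the groups alone, and between −0.026 and 0.01 with the block. The shares by direction depend on scaling. For both against control, upper-quartile scaling gave a median of −0.098, and 46.1% of its calls were higher, against 60.1% in the reported fit.

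Genes listed as acute phase and inflammatory targets of C/EBPs were mostly higher with S100A4 in the fit with the block. Their choice with results of these data known limits what this shows. Of 23 listed, 16 were in the table and 14 could be tested. On the groups alone 2 rose with PDGF-BB, 3 with S100A4 and 10 with both proteins, and none fell; with the block 6, 11 and 11 rose, and CD14 fell with PDGF-BB and with both. With libraries left out, the number that rose was 0 to 5, 0 to 8 and 1 to 9 on the groups alone, and 6 to 8, 10 to 12 and 10 to 11 with the block. Their median log2 difference was 0.72, 2.34 and 2.39 in the same order. LIF, a cytokine of the IL6 family, rose with PDGF-BB (3.64 ± 0.65, adjusted p = 0.0047) and with both (5.58 ± 0.71, adjusted p = 0.00047). With S100A4 alone LIF was higher by a like amount (3.42 ± 0.64, adjusted p = 0.055), and passed with the block (3.395 ± 0.15, adjusted p = 3.4e-09). PTGS2, the inducible cyclooxygenase, rose with PDGF-BB (2.35 ± 0.62, adjusted p = 0.03) and with both (2.99 ± 0.64, adjusted p = 0.0078), and with S100A4 it passed only with the block (1.37 ± 0.19, adjusted p = 0.00028, against 0.61). IL6 itself, named after its values were seen, averaged 13.6 CPM in control, 21.9 CPM with PDGF-BB, 90.7 CPM with S100A4 and 121 CPM with both. It passed with both proteins (3.14 ± 0.92, adjusted p = 0.034), and for S100A4 alone only with the block (2.47 ± 0.29, adjusted p = 5.9e-05, against 0.44 on the groups alone).

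With both proteins against S100A4 alone, 1 of the 14 was higher and 1 lower on the groups alone (all genes 9.45% and 5.51%). With the block 7 were higher and 3 lower (all genes 24.9% and 22.9%). The median difference of the 14 there was 0.41, so most went upward when PDGF-BB was added. C3, SOD2 and TNFAIP6, the 3 that were lower with the block, rose with S100A4 and were lower when PDGF-BB was added. C3, the central complement component, had 3, 7 and 2 counts in control, 88, 229 and 90 counts with S100A4, and 6, 47 and 14 counts with both. In CPM these were 0.121, 0.237 and 0.0943, then 3.92, 8.85 and 3.44, then 0.261, 1.87 and 0.603, so the S100A4 libraries overlapped neither group. C3 rose with S100A4 (5.08 ± 0.82, adjusted p = 0.023) and was lower with both than with S100A4 alone (−2.56 ± 0.69, adjusted p = 0.034). SOD2, the mitochondrial superoxide dismutase, was at 152, 186 and 127 CPM in control, 508, 817 and 563 CPM with S100A4 and 273, 480 and 339 CPM with both. Its S100A4 rise was 2.02 ± 0.25 (adjusted p = 0.0044). Its difference between both and S100A4 alone was −0.79 ± 0.24, which passed only with the block (adjusted p = 5.2e-06, against 0.055). TNFAIP6, a hyaluronan-binding protein, rose with S100A4 by 2.67 ± 0.37 (adjusted p = 0.0097). It was at 41.7, 37.3 and 51.8 CPM with S100A4 and 22.0, 26.1 and 32.1 CPM with both, a difference that again passed only with the block (−0.70 ± 0.16, adjusted p = 0.0025, against 0.23). In the interaction 0 of the 14 passed on the groups alone and 2 with the block, both downward: C3 (−3.54 ± 0.56, adjusted p = 0.028) and LIF (−1.31 ± 0.20, adjusted p = 0.028). With the block and replicate 1 or 3 left out, 0 of the 14 passed, and without replicate 2 there were 5.

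**Figure D4:**
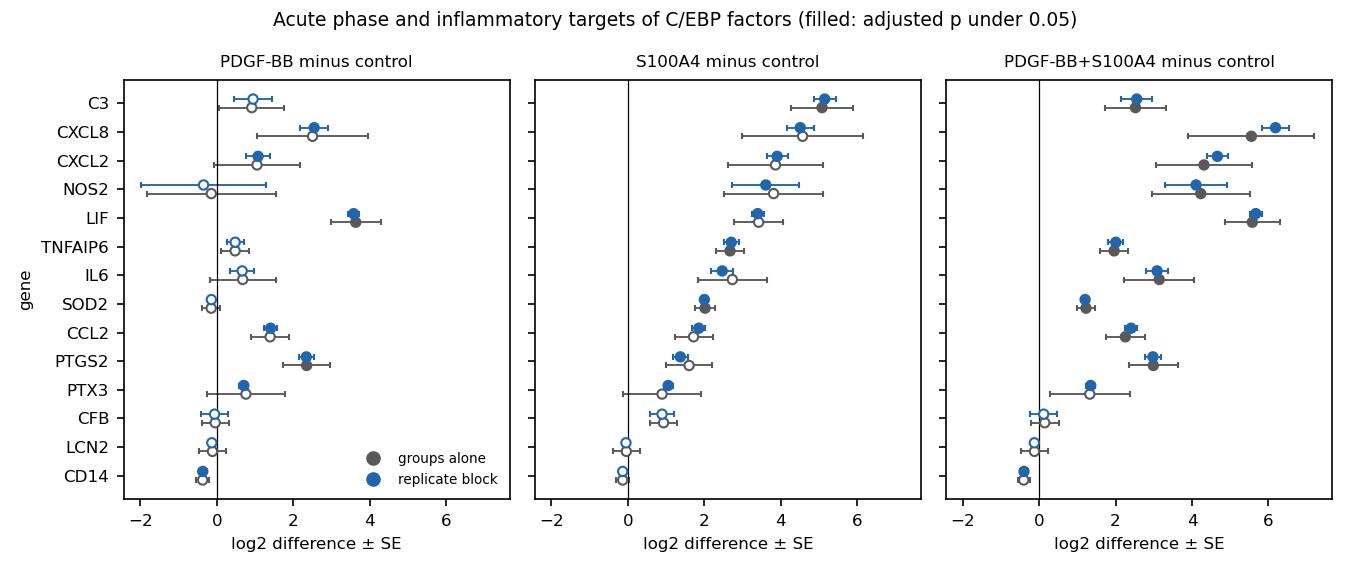
Log2 differences from control, with their SE, of the 14 inflammatory genes tested, with a panel for PDGF-BB, S100A4 and both, in grey from the groups alone and in blue with the replicate block; filled points passed an adjusted p of 0.05. C3 and SOD2 lie further right with S100A4 alone (5.08 and 2.02) than with both (2.52 and 1.23). LIF and PTGS2 lie further right with both (5.58 and 2.99) than with S100A4 alone (3.42 and 1.60).

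Genes that act on C/EBPs, from receptors and kinases to factors that degrade the proteins, were all 22 in the table and tested. With PDGF-BB 5 rose and 1 fell, with S100A4 2 rose, and with both 8 rose and 2 fell; with the block it was 10 and 7, 6 and 0, and 12 and 6. With libraries left out the genes that rose numbered 0 to 6, 0 to 3 and 2 to 10 on the groups alone, and 8 to 10, 4 to 6 and 11 to 13 with the block. Their median difference was 0.08, 0.06 and 0.21. OSMR, the oncostatin M receptor, rose in all 3 comparisons with control, by 0.86 ± 0.13 with PDGF-BB (adjusted p = 0.0019), 1.08 ± 0.13 with S100A4 (adjusted p = 0.0035) and 1.38 ± 0.13 with both (adjusted p = 9e-05). NFKB1, an NF-kappaB subunit, did so too, by 0.62 ± 0.16 (adjusted p = 0.025), 1.09 ± 0.16 (adjusted p = 0.012) and 1.62 ± 0.16 (adjusted p = 0.00011). TRIB1, a pseudokinase known to direct C/EBP alpha to degradation, rose with PDGF-BB (0.99 ± 0.22, adjusted p = 0.014) and with both (1.39 ± 0.22, adjusted p = 0.0016), and with S100A4 only with the block (0.83 ± 0.07, adjusted p = 3.9e-06, against 0.23). FBXW7, a subunit of a ubiquitin ligase that takes C/EBPs as substrates, rose with both (0.58 ± 0.11, adjusted p = 0.0035). PIAS1, a SUMO ligase, fell with PDGF-BB (−0.46 ± 0.11, adjusted p = 0.02). NR3C1, the glucocorticoid receptor and an inducer of CEBPD, named after its values were seen, fell with both (−0.62 ± 0.19, adjusted p = 0.043), and with PDGF-BB only with the block (−0.59 ± 0.05, adjusted p = 3.3e-07, against 0.069).

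Of 14 other bZIP genes, possible partners of C/EBPs, 11 were in the table and 10 tested. None rose and 2 fell with PDGF-BB, none passed with S100A4, and 4 fell with both; with the block 5 fell, 2 rose, and 1 rose and 5 fell. With libraries left out on the groups alone, 0 to 2 fell with PDGF-BB and 0 to 4 with both. Their medians were −0.18, 0.05 and −0.23. DBP, a clock-controlled factor of the PAR subfamily, fell with PDGF-BB (−1.20 ± 0.26, adjusted p = 0.013) and with both (−1.35 ± 0.27, adjusted p = 0.0052). JDP2, a repressor that pairs with Jun, fell likewise (−0.88 ± 0.23, adjusted p = 0.026, and −1.11 ± 0.23, adjusted p = 0.0063). TEF, a relative of DBP, fell with both (−0.69 ± 0.19, adjusted p = 0.029), as did ATF2 (−0.28 ± 0.08, adjusted p = 0.034). With PDGF-BB these passed only with the block, TEF at −0.55 ± 0.12 (adjusted p = 0.0019) and ATF2 at −0.23 ± 0.05 (adjusted p = 0.0027). The block fit put NFIL3 (0.49 ± 0.05, adjusted p = 1.9e-05) and ATF3 (0.54 ± 0.10, adjusted p = 0.0022) higher with S100A4, and NFIL3 also with both (0.21 ± 0.05, adjusted p = 0.0026). ATF4, the best known partner of CEBPG, had no row matched by symbol.

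Glucocorticoid-responsive genes were included because CEBPD is one of them; of 14 listed, 11 were in the table and 9 tested. With PDGF-BB 1 rose and 3 fell, with S100A4 none passed, and with both 2 rose and 2 fell; with the block it was 5 and 3, 5 and 0, and 6 and 3. With libraries left out on the groups alone, PDGF-BB gave 1 to 5 higher and 0 to 3 lower, S100A4 gave 0 to 1 higher, and both gave 1 to 6 higher and 0 to 3 lower. Their medians were 0.58, 0.23 and 0.67. KLF9, a zinc-finger factor, fell with PDGF-BB (−1.35 ± 0.18, adjusted p = 0.00096) and with both (−0.86 ± 0.17, adjusted p = 0.0059). With S100A4 it was higher with the block (0.47 ± 0.13, adjusted p = 0.028). KLF15 fell with PDGF-BB (−1.36 ± 0.23, adjusted p = 0.0031) and with both (−1.30 ± 0.23, adjusted p = 0.0027), and CRISPLD2 fell with PDGF-BB (−1.33 ± 0.39, adjusted p = 0.046) and, with the block only, with both (−0.82 ± 0.13, adjusted p = 8.7e-05). In the other direction, ERRFI1, a feedback inhibitor of the EGF receptor, rose with PDGF-BB (3.30 ± 0.31, adjusted p = 0.00017) and with both (3.74 ± 0.31, adjusted p = 5e-05), and with S100A4 only with the block (0.64 ± 0.19, adjusted p = 0.042). ANGPTL4, an inhibitor of lipoprotein lipase, rose with both (2.64 ± 0.74, adjusted p = 0.029). With the block ANGPTL4 also rose with PDGF-BB (2.03 ± 0.16, adjusted p = 2.7e-07) and with S100A4 (1.15 ± 0.17, adjusted p = 0.00049). FKBP5 passed only with the block, at 0.65 ± 0.10 with PDGF-BB (adjusted p = 0.00011), 0.59 ± 0.10 with S100A4 (adjusted p = 0.0017) and 0.71 ± 0.10 with both (adjusted p = 4.2e-05).

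The genes of the adipogenic programme tied to C/EBPs gave 13 tested of 17 in the table and 18 listed. With PDGF-BB 1 rose and 1 fell, with S100A4 none passed in either fit, and with both 1 rose and 1 fell; with the block PDGF-BB gave 5 and 4, and both gave 5 and 3. With libraries left out on the groups alone, PDGF-BB and both each gave 0 to 3 higher and 0 to 2 lower. Medians were 0.14, 0.02 and 0.07. The gene that fell was KLF15, given above, and the gene that rose was FASN, fatty acid synthase (0.77 ± 0.17, adjusted p = 0.013, with PDGF-BB and 0.91 ± 0.17, adjusted p = 0.0039, with both). PPARG, ADIPOQ, SLC2A4 and PPARGC1A had too few counts to be tested.

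The genes of the amino acid and stress response, where CEBPG pairs with ATF4, were 23 tested of 24 listed. On the groups alone none passed in any comparison with control. With the block 3 rose and 12 fell with PDGF-BB, 3 rose and 1 fell with S100A4, and 5 rose and 10 fell with both. With a replicate left out as well, 7 to 10 fell with PDGF-BB and 5 to 9 with both. Their medians were −0.15, 0.04 and −0.11. With the block VLDLR, a lipoprotein receptor, fell with PDGF-BB (−0.60 ± 0.03, adjusted p = 1.5e-08), as did SESN2, a leucine sensor (−0.62 ± 0.09, adjusted p = 3.5e-05). The amino acid transporters SLC7A5 (0.57 ± 0.07, adjusted p = 2.6e-05) and SLC7A1 (0.31 ± 0.04, adjusted p = 4.7e-05) rose. With S100A4, SLC7A11, the cystine transporter (0.49 ± 0.07, adjusted p = 0.00031), SLC7A1 (0.29 ± 0.04, adjusted p = 0.00046) and DDIT4, an inhibitor of mTOR signalling (0.37 ± 0.06, adjusted p = 0.0016), rose with the block, and VLDLR fell (−0.12 ± 0.03, adjusted p = 0.032). DDIT4 fell with PDGF-BB in that fit (−0.25 ± 0.07, adjusted p = 0.0064) and rose with both (0.17 ± 0.07, adjusted p = 0.036), and SLC7A11 rose with PDGF-BB (0.31 ± 0.07, adjusted p = 0.0019) and with both (0.52 ± 0.07, adjusted p = 2.2e-05). With both proteins VLDLR (−0.66 ± 0.03, adjusted p = 2.7e-09) and SESN2 (−0.69 ± 0.09, adjusted p = 1.2e-05) fell, and SLC7A5 (0.61 ± 0.08, adjusted p = 9.2e-06) and SLC7A1 (0.45 ± 0.04, adjusted p = 8.7e-07) rose.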

How the data were processed

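RNA sequencing was measured in 12 libraries (TruSeq, single-end, HiSeq4000, per the labels' protocols). The authors deposited whole-number read counts per Ensembl gene; CASAVA 1.8.2, STAR 2.4, featureCounts 1.4.6 and Sscrofa11.1 are named in the submitters' processing notes, without settings or use of strand. A symbol was found for 14572 of 21153 rows, and 0 sample columns were left out.

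Counts were filtered with filterByExpr (minimum count 10), scaled by TMM and tested with edgeR 4.0.16 (R 4.3.3) by the two-sided quasi-likelihood test on 4 group means over all 12 libraries. Benjamini-Hochberg adjustment ran over 12444 genes, with a threshold of 0.05, and since no label ties libraries to animals, the spread behind each p-value is that of the libraries alone. For members and named genes, the fit with the replicate number as a block is printed where it changes a call against control. Deviations from group means correlated at r = 0.746 to 0.908 in the 18 same-number pairs and at −0.676 to 0.136 in the 36 others, so, by the data and not the labels, the numbers pair the samples. The replicate number contrasts came from a fit with group and number. No library repeated another of its own group within sampling noise, and libraries of different groups were not compared in this way. CPM used TMM-scaled sizes, and log2 CPM a prior count of 2. The SE of an edgeR difference was its absolute size divided by the square root of the test's F statistic. It is therefore less reliable for differences near 0. Coordinates are those of RefSeq for Sscrofa11.1, matched by symbol.

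Members and lists were chosen with earlier results of these data known. Named were the members, CEBPE, CEBPZ, DDIT3, for each list and each comparison with control the up to 4 genes of smallest adjusted p, and the 5 most like and 3 most unlike genes of each member with a mean of at least 1 log2 CPM. A gene that this rule took is not reported here. Alternatives were DESeq2 1.42.0, RLE and upper-quartile scaling, no filter, a stricter filter, the groups compared alone, the block, and leaving out libraries. The scripts were tested on simulated counts with no replicate number effect and a spread near that of the block fit. The common biological coefficient of variation was 27.2% on the groups alone and 5.14% with the block. That test therefore does not gauge false calls on the groups alone.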

Additional observations from a re-analysis of the deposited data

How the results depend on the processing

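Of 624 alternative values of the members and CEBPZ, 532 kept their direction and their side of the threshold; the 42 that turned sign were in differences that neither they nor the reported fit called. Of 138 alternative counts of members called, 103 were within 1.5 times the reported count, and of 1656 for the lists 1204 were. Both totals include counts of 0 that stayed 0. Among the members these were 24 for the interaction and 14 for both against PDGF-BB. Where the reported count was above 0, a smaller share held. The replicate block gave 2 members called for PDGF-BB, S100A4 and both against control and for both against PDGF-BB; its other changes of call stand beside the results. The groups compared alone gave 0 for PDGF-BB and for S100A4 against control, and DESeq2 gave 1, CEBPB, for both against PDGF-BB. In that comparison DESeq2 called 123 of all genes, against 34 in the reported fit. For refits on fewer libraries the share of all genes called is not given. A change in the members there cannot be told from a change in calling over all genes. Leaving out libraries on the groups alone gave 0 to 1 members for each treatment against control and for both against S100A4, 0 for both against PDGF-BB and 0 to 2 for S100A4 against PDGF-BB. With a replicate number left out and the block added, there were 1 to 2 for PDGF-BB and for both against control, 2 for S100A4 against control and for both against PDGF-BB, 2 to 3 for S100A4 against PDGF-BB and 1 for both against S100A4. The cause was not tested. Signs turned as follows, where ranges over left-out libraries include fits with the block. The interaction of CEBPD ran from −0.146 to 0.795 over left-out libraries and that of CEBPG from −0.179 to 0.193. CEBPG's interaction was −0.007 with DESeq2 and with RLE, −0.003 with no filter, −0.004 with the block, −0.009 with the stricter filter and 0 with upper-quartile scaling. For both against control CEBPG was −0.01 with DESeq2 and RLE, −0.02 with the stricter filter and −0.071 with upper-quartile scaling, and −0.189 to 0.152 over left-out libraries. Over left-out libraries CEBPG ran from −0.287 to 0.055 for PDGF-BB against control, −0.096 to 0.274 for S100A4 against control, −0.015 to 0.23 for both against PDGF-BB and −0.275 to 0.058 for both against S100A4. CEBPZ ran from −0.153 to 0.03 for both against PDGF-BB, and CEBPB from −0.12 to 0.042 for both against S100A4. Without the PDGF-BB+S100A4 group, replicate 2 differed from the others by −0.018 for CEBPZ, and replicate 3 from 1 by −0.015 for CEBPB; without the S100A4 group the latter was −0.058, and −0.109 for CEBPD. Depth limits CEBPA and CEBPE, and 3 libraries per group limit the rest.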
